A study of Mus musculus with 12 samples.

Results

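Atg12 is a small ubiquitin-like protein that autophagy uses as a tag, and the genes that attach it and put the product to use form a short enzyme chain. The chain was followed as 8 genes, chosen by symbol from the 32285 genes listed in the deposited feature tables: Atg12, Atg5, Atg7, Atg10, Atg3, Atg16l1, Atg16l2 and Tecpr1. All 8 were found, each with 1 gene identifier. Over the cells of the 12 libraries they gave between 12964 UMIs for Atg7 and 44340 UMIs for Atg3, a UMI being the barcode by which each captured RNA molecule is counted once.

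As background, Atg7 is the activating enzyme, which charges Atg12 and hands it to Atg10, the conjugating enzyme that joins it to Atg5. The Atg12-Atg5 conjugate binds Atg16l1, and this complex directs Atg3 to attach LC3-family proteins to lipid on the growing autophagosome. Atg7 therefore serves both conjugation reactions, of Atg12 and of LC3. Atg16l2 is a paralogue of Atg16l1 that also binds the conjugate and has been tied less firmly to autophagy, and Tecpr1 binds the conjugate apart from Atg16l1, at lysosomal membranes.

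The samples were lymph node cells of C57BL/6 mice aged 7 to 10 weeks, all Atg12 fl/fl and crossed with CDH5 CreER, a tamoxifen-inducible Cre recombinase under the promoter of the endothelial cadherin gene Cdh5; the labels give each mouse as Cre positive or Cre negative. All mice received tamoxifen 5 times, the Cre-negative ones included. They were then painted on the abdomen with 50 µl of 4% oxazolone, a skin sensitiser that causes contact inflammation, and taken at day 3 or day 7, or received the acetone and olive oil solvent alone as vehicle. Digested nodes were separated on CD45 beads into an unbound fraction labelled CD31 and a bound fraction labelled CD45, and 1 library was made from each of the 12 combinations, so no group has a replicate. How many animals went into a library is not given in the sources used here. Differences between Cre labels were tested over the 3 treatments as pairs, and differences between cell classes within the 6 libraries of a fraction. Such p-values measure the spread between these libraries, which may be technical.

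Between 5698 and 10553 cells per library were kept, 89054 in all, from 36724887 to 76186801 UMIs per library. The libraries shared at most 27 cell barcodes in any pair, and in no pair more than 0.384% of the smaller library. Cells were grouped by clustering on variable genes that left out all 8 members, and the clusters were named "-like" classes from marker genes. The CD31 fraction held 46508 cells, of which 51.15% were blood endothelial-like and 10.31% lymphatic endothelial-like, with 11.7% T cell-like and 12.75% B cell-like cells beside them. The CD45 fraction held 42546 cells, of which 28.29% were T cell-like and 37.09% B cell-like, but also 19.6% fibroblast-like cells, which goes against its label as immune cells. The CD31 library labelled Cre-positive at day 3 stood apart, with a cluster of few-UMI cells that made up 21.5% of it. This cluster had 5 of 5 cycling markers but could not be given a cell type, and was left out of the class sums. Of its cells 75.1% came from this library. Cells with Xist but no Y-linked transcript made up 0.0294% and 0% of the CD31 and CD45 vehicle libraries labelled Cre-positive and 27.4% to 53.1% of the other 10 libraries, so the sexes were not balanced between labels at vehicle.

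The stretches before the RefSeq start sites are shown for 3 members with distinct class patterns. Atg5 and Atg10, which act in the same conjugation step, were both at their highest in plasmacytoid dendritic cell-like cells, and Atg16l2 was highest in B cell-like cells. The stretches lie at chr10:44268089-44268338 on the plus strand for Atg5, chr13:91223988-91224237 on the minus strand for Atg10 and chr7:101302252-101302338 on the minus strand for Atg16l2 (RefSeq, GRCm38.p6). The Atg16l2 stretch is 87 bases long, since the rest of its window overlaps an annotated exon. Capitals mark the letters CACGTG, an E-box, and GGGCGG, a GC box, read on either strand.
Atg5: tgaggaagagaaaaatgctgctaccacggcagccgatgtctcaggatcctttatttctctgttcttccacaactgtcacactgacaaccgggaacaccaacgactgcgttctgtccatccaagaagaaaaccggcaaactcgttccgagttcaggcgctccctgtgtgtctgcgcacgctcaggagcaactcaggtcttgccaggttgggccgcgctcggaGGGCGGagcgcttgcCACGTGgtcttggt
Atg10: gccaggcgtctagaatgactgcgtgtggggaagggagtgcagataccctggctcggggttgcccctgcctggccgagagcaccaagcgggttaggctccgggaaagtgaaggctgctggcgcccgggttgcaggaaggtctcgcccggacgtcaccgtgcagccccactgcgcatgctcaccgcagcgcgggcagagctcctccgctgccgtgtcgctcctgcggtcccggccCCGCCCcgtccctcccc
Atg16l2: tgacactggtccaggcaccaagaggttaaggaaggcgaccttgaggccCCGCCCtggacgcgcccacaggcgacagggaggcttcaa
RefSeq windows of 250 bases before the start were at hand for 6 of the 8 members. CACGTG was in 3 of these 6, those of Atg5, Atg7 and Atg3, against 6.02% of 32851 windows of the same length. The Atg7 window, chr6:114670846-114671095, precedes a RefSeq start that lies inside the GENCODE span of Atg7 and not at the start of that span. The windows of Atg3, chr16:45158579-45158828, and of Atg16l2, chr7:101302089-101302338, also reach into the GENCODE spans of these genes. Motif counts for them can therefore include bases inside the gene. GGGCGG was in 4 of the 6, those of Atg5, Atg10, Atg3 and Atg16l2, against 32.7% of all windows. GGAAGTG, an ETS-type site, and TATAAA, the TATA box, were in none of the 6, against 8.55% and 12.4% of all windows. All 4 motifs were read on both strands and do not contain one another. A match describes letters, not binding.

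By GENCODE release M21 on GRCm38, each member is a protein-coding gene: Atg12 at chromosome 18, 46730144 to 46741580 (minus strand), Atg5 at chromosome 10, 44268358 to 44364291, Atg7 at chromosome 6, 114643097 to 114860614, and Atg10 at chromosome 13, 90935356 to 91223968 (minus strand). Atg3 lies at chromosome 16, 45158785 to 45188538, Atg16l1 at chromosome 1, 87755870 to 87792428, Atg16l2 at chromosome 7, 101263034 to 101302251 (minus strand), and Tecpr1 at chromosome 5, 144194442 to 144223615 (minus strand). Exons of other genes overlap the exons of 1 member, Atg16l2, by 25 bases of Fchsd2 on the opposite strand.

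The activating and conjugating enzymes each had their own order of classes, and in the CD45 fraction macrophage-like cells were high in both Atg3 and Atg7. Levels here are in CPM, the UMIs of a gene scaled to all UMIs of its class in 1 library, and are compared between classes and not between genes. Atg3, the enzyme that attaches LC3, had 73.2 CPM in the lowest library, 81.7 at the median and 96.8 in the highest in B cell-like cells. It had 149, 177 and 201 CPM in conventional type 1 dendritic cell-like cells, the class that presents antigen to CD8 T cells. Plasmacytoid dendritic cell-like cells, the interferon producers, had 127, 143 and 174 CPM of Atg3, and macrophage-like cells 100.3, 133 and 152. None of these 3 classes overlapped with the B cell-like range in any of the 6 libraries. Mature dendritic cell-like cells had 59.1, 80.1 and 97.8 CPM of Atg3, within the B cell-like range at the median. Neutrophil-like cells of the CD45 fraction held Atg3 at 361 and 388 CPM in the 2 libraries of that fraction with at least 20 such cells, on 59 UMIs in all. The Cre-negative vehicle library of the CD31 fraction, with 64 such cells, is not included. Plasma cell-like cells had the lowest median of Atg3, 46.0, 48.7 and 55.6 CPM in the 3 libraries with enough of them.

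Atg7, the activating enzyme, showed another order. Macrophage-like cells had 32.4, 48.8 and 66.1 CPM, above the B cell-like cells with 15.9, 21.6 and 27.8 CPM in 6 of 6 libraries and without overlap. In conventional type 1 dendritic cell-like cells, where Atg3 was highest among the dendritic classes, Atg7 had 16.6, 18.97 and 30.9 CPM, which overlaps with the B cell-like range. A cluster of the CD45 fraction led by Il23r and Il17a, counted among the T cell-like cells, held Atg7 at 31.7, 62.6 and 95.1 CPM, over a T cell-like median of 27.4 CPM; it was singled out after its values were seen. Germinal centre B cell-like cells, which divide and mutate their receptors, had 8.49, 11.2 and 20.5 CPM over 4 libraries, and plasma cell-like cells 8.49, 9.02 and 10.5 CPM over 3.

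Atg10, the enzyme that joins Atg12 to Atg5, had 69.2, 116.5 and 129 CPM in plasmacytoid dendritic cell-like cells and 46.2, 58.5 and 71.4 CPM in B cell-like cells. The former were higher in 6 of 6 libraries, with a median ratio of 1.82 within libraries, though the ranges overlap. In the CD31 fraction the lymphatic endothelial-like cells had 44.2, 64.2 and 75.7 CPM of Atg10 and the blood endothelial-like cells 33.1, 47.1 and 54.4 CPM. The lymphatic cells were the higher ones in 6 of 6 libraries.

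Atg12 had overlapping levels in the endothelial classes and lower ones in antibody-secreting and germinal centre B cells. In the CD31 fraction it had 39.6, 62.1 and 83.5 CPM in capillary-like cells, 37.6, 63.4 and 84.7 CPM in arterial-like cells and 48.2, 58.6 and 82.3 CPM in lymphatic endothelial-like cells. HEV-like cells, the high endothelial venule cells through which lymphocytes enter a node, had 43.4, 45.2 and 51.8 CPM. These 4 ranges overlap. In the CD45 fraction T cell-like cells had 46.0, 48.8 and 54.6 CPM, NK cell-like cells 30.1, 40.6 and 50.003 CPM and fibroblast-like cells 29.05, 31.0 and 34.0 CPM. The fibroblast-like range lies below those of the T and B cell-like cells. Plasma cell-like cells, which secrete antibody, had the lowest median, 17.6, 18.04 and 18.9 CPM over 3 libraries. Germinal centre B cell-like cells had 21.6, 24.7 and 29.7 CPM over 4. Both lie below the B cell-like cells at 35.9, 43.3 and 51.2 CPM without overlap. Plasma cell-like cells were also below B cell-like cells in Atg3, Atg7 and Atg16l2. CPM are shares of all UMIs of a class. Neither plasma nor germinal centre B cell-like cells were fitted, so a shift of all genes on this scale was not tested.

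Atg5, the partner that Atg12 is joined to, had medians between 30.5 and 63.0 CPM in the classes with 6 libraries, except one. Plasmacytoid dendritic cell-like cells had 84.9, 92.8 and 101.5 CPM of Atg5, against 43.1, 46.2 and 49.0 in B cell-like cells. They were higher in 6 of 6 libraries, by a median ratio of 2.01, with no overlap. The lowest of those medians was in conventional type 1 dendritic cell-like cells, with 28.5, 30.5 and 40.8 CPM, and the highest in macrophage-like cells, with 46.1, 63.0 and 78.2 CPM; these 2 ranges do not overlap either.

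**Figure D1:**
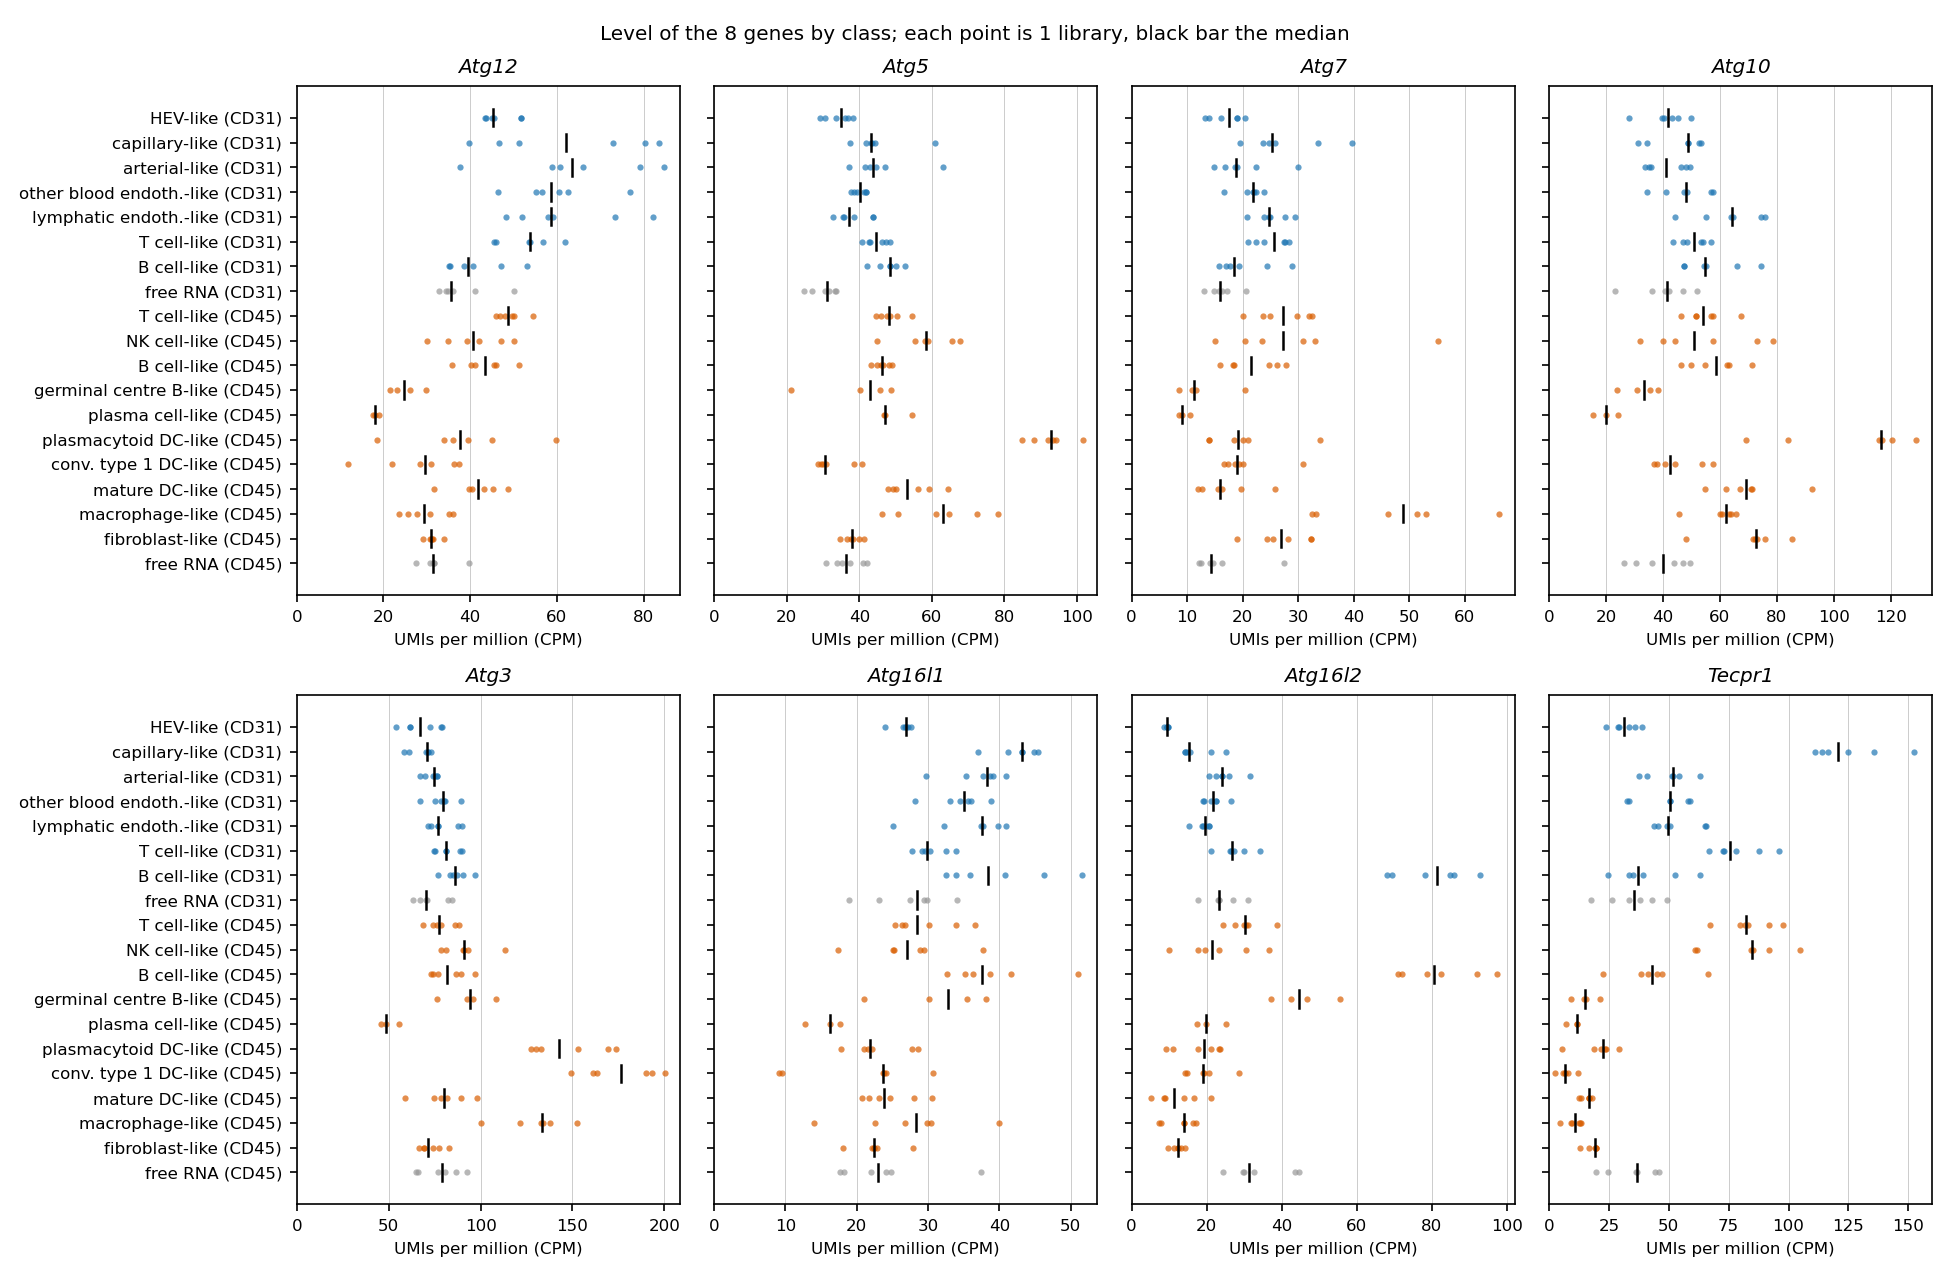
Level of each of the 8 genes in CPM (horizontal axes, starting at 0, each with its own scale) by class and fraction. A point is 1 library with at least 20 cells of the class, blue for CD31 and orange for CD45, grey for free RNA, and the black bar is the median. Atg16l2 stands out in B cell-like cells of both fractions, Tecpr1 in capillary-like cells, Atg5 in plasmacytoid dendritic cell-like cells and Atg7 in macrophage-like cells.

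The paralogues Atg16l1 and Atg16l2, which both bind the conjugate, were distributed differently. Atg16l2 had 71.0, 80.7 and 97.5 CPM in B cell-like cells of the CD45 fraction and 68.2, 81.5 and 92.9 CPM in those of the CD31 fraction. T cell-like cells had 24.5, 30.2 and 38.9 CPM in the CD45 fraction, blood endothelial-like cells 16.4, 18.5 and 21.9 CPM and fibroblast-like cells 9.74, 12.5 and 14.2 CPM. HEV-like cells had 8.56, 9.53 and 9.81 CPM, below the capillary-like, arterial-like and other blood endothelial-like ranges, none of which fell under 14.1 CPM. Venous-like cells gave 6 UMIs of Atg16l2 in 5 libraries, too few to place them. The B cell-like range overlapped with none of these. Free RNA outside cells held Atg16l2 at 24.3 to 44.7 CPM in the CD45 fraction, above the fibroblast-like and macrophage-like ranges. Within the B cell lineage the level was lower in germinal centre B cell-like cells, at 37.0, 44.6 and 55.7 CPM, and in plasma cell-like cells, at 17.4, 19.8 and 25.1 CPM.

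Atg16l1, the subunit with the established part in autophagy, had 32.7, 37.5 and 51.1 CPM in B cell-like and 25.3, 28.4 and 36.6 CPM in T cell-like cells of the CD45 fraction. It had 37.1, 43.1 and 45.4 CPM in capillary-like and 23.96, 26.8 and 27.6 CPM in HEV-like cells, which do not overlap. Of the UMIs of the pair, Atg16l2 gave 64.3% to 70.7% in B cell-like cells of the CD45 libraries, 47.4% to 53.7% in T cell-like cells and 31.0% to 38.7% in fibroblast-like cells. In HEV-like cells it gave 24.1% to 27.96% and in capillary-like cells 24.02% to 37.9%, which overlap, and in the other blood endothelial-like cells 34.6% to 48.5%. A 3-prime assay may capture the 2 transcripts unequally, so these shares are compared between classes and are not read as the ratio of the 2 proteins.

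**Figure D2:**
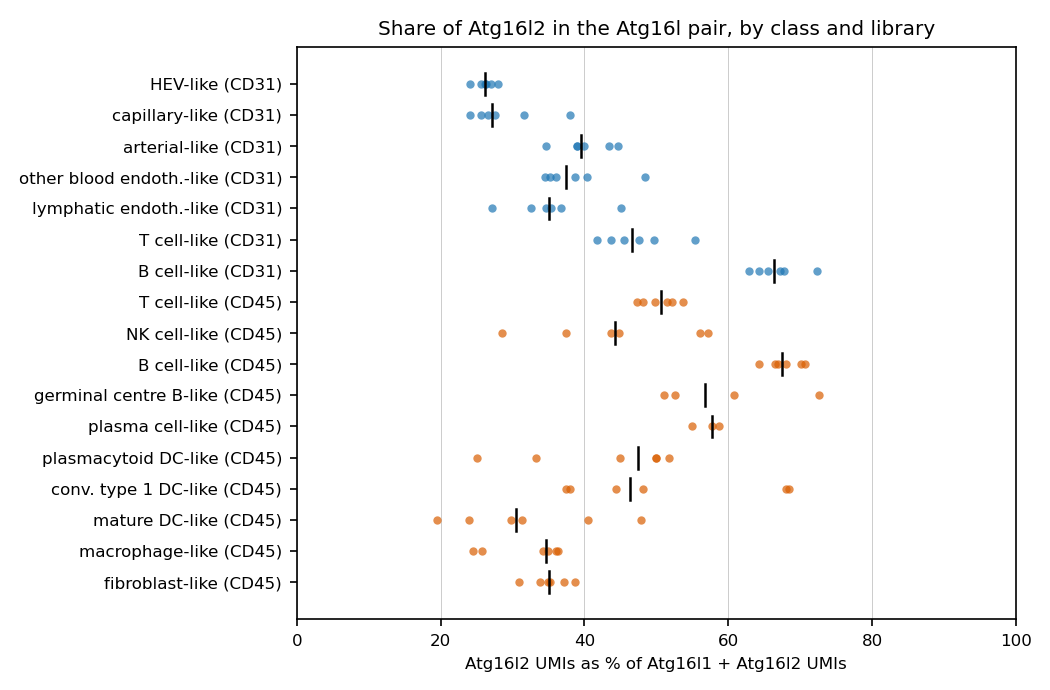
Atg16l2 as a percentage of the summed Atg16l1 and Atg16l2 UMIs (horizontal axis, 0 to 100%), by class and fraction; points are libraries and black bars medians. B cell-like cells lie between 62.8% and 72.3% in the 12 libraries and HEV-like cells between 24.1% and 27.96% in 6.

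Tecpr1 set the capillary-like cells apart from the other endothelial classes. They had 111, 121 and 152 CPM, against 37.6, 51.7 and 63.1 CPM in arterial-like cells, 32.5, 50.4 and 59.0 CPM in the other blood endothelial-like cells and 23.96, 31.4 and 38.7 CPM in HEV-like cells. The capillary-like range overlapped with none of these, and capillary-like cells exceeded HEV-like cells by a median ratio of 4.11 within libraries. Capillary-like cells also had fewer UMIs per cell, with library medians of 1856 to 2833. In the fit against all the rest of the blood endothelial-like cells, described below, Tecpr1 stood at log2 fold changes of 1.32 to 1.56 over the 9 alternatives. These include the one with cells of at least 2000 UMIs. Depth was not otherwise matched between classes, and its part was not tested further. Among lymphocytes, Tecpr1 had 67.2, 82.4 and 97.6 CPM in T cell-like and 61.0, 84.8 and 105 CPM in NK cell-like cells of the CD45 fraction, and 22.6, 43.1 and 66.3 CPM in B cell-like cells. The T cell-like range lies above the B cell-like one, and the NK cell-like range overlaps with it. Conventional type 1 dendritic cell-like cells, with 2.37, 6.74 and 12.1 CPM, and macrophage-like cells, with 4.68, 10.9 and 13.1 CPM, were the lowest of the classes with 6 libraries.

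These differences between classes were tested with edgeR's quasi-likelihood test on counts summed per class and library, with the library as a block, and p-values were adjusted over all genes by the Benjamini-Hochberg method. An adjusted p under 0.05 is called here. With many cells in each sum the share of all genes called was high in each of these comparisons, and the members' counts are read against it. Between T and B cell-like cells of the CD45 fraction 70.2% of 12156 genes were called, 36.8% as higher in T cell-like cells, and 5 of 8 members, 3 of them higher. Atg16l2 was lower in T cell-like cells by a log2 fold change of -1.41 ± 0.05 (SE; adjusted p = 1.7e-11) and Atg16l1 by one of -0.36 ± 0.06 (adjusted p = 5.1e-05). Tecpr1 was higher by 1.02 ± 0.10, Atg7 by 0.35 ± 0.06 and Atg12 by 0.22 ± 0.05 (adjusted p = 0.0023). Each of these 5 was called under all 9 alternatives run. Atg5, Atg10 and Atg3 gave values between -0.04 and 0.10 and were not called.

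Between myeloid-like cells, which pool the macrophage-like, conventional type 1 and mature dendritic cell-like cells, and B cell-like cells, 76.9% of genes were called, 36% as higher and 40.9% as lower in myeloid-like cells. Of the members 6 of 8 were called, 2 higher and 4 lower. Atg16l2 was lower by a log2 fold change of -2.58 ± 0.11, Tecpr1 by -1.81 ± 0.16, Atg16l1 by -0.72 ± 0.13 and Atg12 by -0.34 ± 0.10 (adjusted p = 0.0068). Atg3 was higher by 0.52 ± 0.07 and Atg7 by 0.34 ± 0.10 (adjusted p = 0.0092; 0.051 with no expression filter, which ends the call). Within the pool the Atg7 median was above that of B cell-like cells in macrophage-like cells alone, with mature dendritic cell-like cells, 951 of its 1940 cells, at 15.9 CPM. The call of Atg12 was lost with DESeq2, with a log2 fold change of -0.24 and adjusted p = 0.072, and without the day 7 libraries, with -0.24 and adjusted p = 0.099. Between fibroblast-like and B cell-like cells, a comparison added after the files were seen, 83.2% of genes were called, 40.7% as higher and 42.5% as lower, and 6 of 8 members, all 6 lower in fibroblast-like cells. They were Atg16l2 with a log2 fold change of -3.08 ± 0.10, Tecpr1 with -1.55 ± 0.12, Atg16l1 with -1.11 ± 0.10, Atg12 with -0.79 ± 0.09, Atg5 with -0.60 ± 0.09 and Atg3 with -0.50 ± 0.08. Scaling moved this comparison: by total UMIs the median of all genes stood at 0.25 in place of -0.07. On that scale Atg3 lost its call, at -0.17, while Atg7, at 0.30, and Atg10, at 0.29, were called higher.

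Within the blood endothelial-like cells, HEV-like cells were compared with all the rest together: capillary-like, arterial-like, venous-like and those of no named subtype. This gave 61.9% of genes called, 31.6% as higher and 30.4% as lower, and 4 of 8 members, 2 in each direction. Atg16l2 was lower in HEV-like cells, with a log2 fold change of -0.81 ± 0.10 (adjusted p = 1.9e-05), and Tecpr1 with -0.59 ± 0.06 (adjusted p = 5.9e-06). Both kept this direction and were called under all 9 alternatives. For Tecpr1 the rest includes the capillary-like cells with their high level. The other blood endothelial-like cells alone had more Tecpr1 than HEV-like cells in 6 of 6 libraries, by a median CPM ratio of 1.45. Those ranges overlap, and this pair of classes was not fitted apart. Atg3, at 0.17 ± 0.05, and Atg10, at 0.16 ± 0.06, were called higher, but on the scale of total UMIs they stood at -0.16 and -0.18 and were called lower. Over all 9 alternatives Atg3 was called in 6 and Atg10 in 3, that reversed call included; without the vehicle or the day 3 libraries neither was called, at 0.17 and 0.12 for Atg3 and 0.13 and 0.14 for Atg10. On that scale the median of all genes was -0.35 and all 8 members were called lower in HEV-like cells, so the direction is the same on both scales for 5 members, of which Atg16l2 and Tecpr1 are called on both.

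Capillary-like against all the rest of the blood endothelial-like cells, HEV-like ones included, was added after Tecpr1 was seen to be highest in capillary-like cells. Its Tecpr1 value is a description. There 54.6% of genes were called, 25.8% as higher and 28.7% as lower, and 4 of 8 members, 3 higher and 1 lower. Tecpr1 stood at a log2 fold change of 1.45 ± 0.09, Atg7 at 0.34 ± 0.12, Atg16l1 at 0.29 ± 0.08 and Atg3 at -0.24 ± 0.07. Without the vehicle libraries only Tecpr1 was called among the members, with Atg16l1 at 0.26, Atg7 at 0.37 and Atg3 at -0.18. Without the day 7 libraries Atg16l1, at 0.28, and Atg7, at 0.22, were not called. Over the 9 alternatives Atg16l1 was called in 7, Atg3 in 6 and Atg7 in 5: Atg3 also lost its call with total UMIs, at -0.15, and without day 3, at -0.22, and Atg7 with DESeq2, at 0.33, and in cells with at least 2000 UMIs, at 0.30. Blood against lymphatic endothelial-like cells gave 59.6% of genes called, 28.9% as lower, and 1 of 8 members, Atg10 with -0.35 ± 0.05 (adjusted p = 0.00013), which was called under all 9 alternatives. Atg12 did not differ beyond its error between the 2 endothelial types, at 0.02 ± 0.07.

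**Figure D3:**
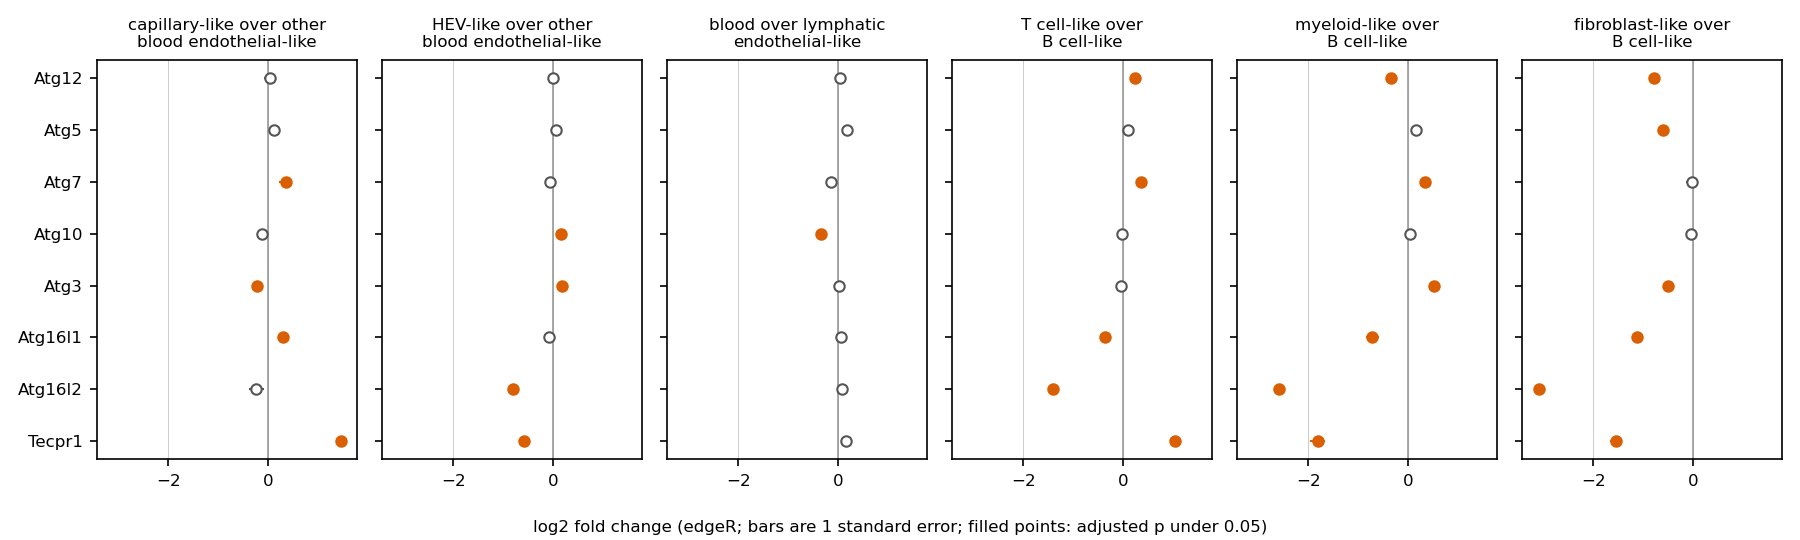
Log2 fold change of each member (horizontal axis, edgeR, bars 1 standard error) in the 6 class comparisons; filled points have an adjusted p under 0.05. The widest values are those of Atg16l2 and Tecpr1, which differ in opposite directions between T and B cell-like cells, while Atg5 and Atg10 stay near 0 in most comparisons.

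The rest of the autophagy pathway was followed as 33 genes in 5 lists: the initiation kinase complex, the lipid kinase complex, membrane supply and recruitment, the LC3-family proteins with their proteases, and cargo receptors. Their counts are read against the shares of all genes called in the same comparisons, 54.6% to 83.2%. Between T and B cell-like cells, where 36.8% of all genes were higher and 33.4% lower, 9 of 33 were called higher in T cell-like cells and 11 lower. The widest were Optn, a cargo receptor, at -3.01, Atg4c, a protease of LC3-family proteins, at -2.99, and Pik3r4, a subunit of the lipid kinase, at -1.88. HEV-like cells had 7 of 33 higher and 9 lower than the other blood endothelial-like cells, with Map1lc3a at -1.23, Gabarap at 0.69 and Ulk2, an initiating kinase, at -0.58. Blood endothelial-like cells had 5 of 33 higher and 14 lower than lymphatic ones, with Atg4a at 0.96, Wipi1, a lipid-binding recruitment factor, at -0.91 and Ulk1 at -0.84. Capillary-like cells had 10 of 33 higher and 3 lower, with the cargo receptors Calcoco1 at 0.82 and Sqstm1 (p62) at -0.80. Myeloid-like cells had 12 higher and 16 lower than B cell-like cells, and fibroblast-like cells 12 higher and 15 lower, led by Wipi1 at 5.88 and Gabarapl1 at 3.72. The median log2 fold change of the 33 lay between -0.17 and 0.10 in these comparisons.

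Across the 22 class and fraction combinations present in at least 3 libraries, the genes whose class medians were most like those of Atg12 were Fam210b, with Pearson's r of 0.88, Ncoa6, with 0.88, and Tmem87a, with 0.87. They were Tab3, Pik3c3 and Nup155 for Atg16l1, each with r of 0.86, and A630001G21Rik, Kif18a and Mief1 for Atg16l2, with 0.89, 0.85 and 0.85. Among the members, the highest r was 0.67, between Atg12 and Tecpr1, and the lowest -0.38, between Atg3 and Tecpr1. These are descriptions over 11208 genes, and classes of 1 fraction share their libraries and depth.

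Whether the members differed with the Cre label was asked in each class. Atg12 is the floxed gene, and a 3-prime assay may still count the transcript of a recombined allele, so its UMIs do not show how far recombination went. In capillary-like cells Atg12 had 46.6 CPM in the vehicle library labelled Cre-negative and 83.5 CPM in that labelled Cre-positive. It had 51.2 and 73.05 CPM at day 3, and 39.6 and 80.3 CPM at day 7. All 3 libraries labelled Cre-positive were above all 3 labelled Cre-negative, with log2 ratios of 0.51 to 1.02 within pairs. The 95% counting interval of the ratio lay above 0 on the log2 scale in 3 of 3 pairs. That interval covers counting error only. How many of all genes separate in this way was not counted, and the label was not fitted in capillary-like cells alone. In arterial-like cells the pairs were 58.9 and 84.7 CPM at vehicle, 37.6 and 60.7 CPM at day 3 and 66.1 and 79.2 CPM at day 7, with the Cre-positive label higher in 3 of 3 pairs and the interval above 0 in 2. Fibroblast-like cells, where the Cre driver is not known to act, had 31.1 and 30.7 CPM at vehicle, 29.05 and 34.0 CPM at day 3 and 31.0 and 31.4 CPM at day 7. The groups overlap, and the interval lay above 0 at day 3 alone. In T and B cell-like cells the interval lay above 0 in 2 and 1 of 3 pairs of the CD31 libraries and in 1 and 2 of 3 of the CD45 libraries. It lay above 0 in 2 of 3 pairs of lymphatic and of other blood endothelial-like cells. In HEV-like and in myeloid-like cells it did so in 0 of 3. By direction alone, Atg12 was higher under the Cre-positive label in 3 of 3 pairs of HEV-like cells and 1 of 3 of myeloid-like cells. It was higher in 3 of 3 of T cell-like cells of the CD45 fraction, at log2 ratios of 0.05 to 0.22. Free RNA was higher in 3 of 3 pairs of each fraction, at 0.02 to 0.28 in CD31 and 0.04 to 0.34 in CD45, with no interval above 0.

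In the fit over the 3 treatments Atg12 stood at a log2 fold change of 0.40 ± 0.08 for the Cre-positive over the Cre-negative label in blood endothelial-like cells (edgeR, adjusted p = 1). It stood at 0.47 ± 0.17 in lymphatic endothelial-like cells and at 0.13 ± 0.13 in HEV-like cells. The value was 0.22 ± 0.15 in the lymphocytes of the same CD31 libraries, 0.03 ± 0.12 in fibroblast-like cells and 0.05 ± 0.08 in T cell-like cells of the CD45 fraction. In B cell-like cells of the CD45 fraction the alternatives gave 0.02 to 0.25 and no call. The test of the difference between blood endothelial-like cells and the lymphocytes beside them gave 0.17 ± 0.16 (edgeR, adjusted p = 1), so a difference in the Atg12 effect between these classes was not shown. Atg12 was not called lower under the Cre-positive label in any class fitted. Mitochondrial shares moved with the label here too. The mitochondrial share was 1.75% to 2.01% under the Cre-negative and 2.02% to 2.46% under the Cre-positive label in blood endothelial-like cells, and 1.65% to 1.74% against 1.79% to 2.09% in lymphatic endothelial-like cells. Median UMIs per cell were 6458 to 7068 against 7210 to 8371 in lymphatic endothelial-like cells, and 3380 to 4202 against 3910 to 4692, which overlap, in blood endothelial-like cells. Their part in the Atg12 and Cdo1 values was not tested.

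Cdo1, the neighbour of Atg12 on the same strand, was followed beside it because earlier results of these data showed it to differ; it lies at chromosome 18, 46713193 to 46728395. It encodes an enzyme that oxidises cysteine. In capillary-like cells it had 11.9, 9.33 and 4.57 CPM in the libraries labelled Cre-negative at vehicle, day 3 and day 7 and 41.1, 41.3 and 46.9 CPM in those labelled Cre-positive. In fibroblast-like cells, where its level was well above that of lymphocytes under either label, it had 17.9, 19.3 and 33.5 CPM under the Cre-negative and 16.9, 22.7 and 22.1 CPM under the Cre-positive label. The fitted value there was -0.20 ± 0.19, against 2.59 ± 0.14 in blood endothelial-like cells (edgeR, adjusted p = 0.045) and 2.34 ± 0.23 in lymphatic endothelial-like cells (adjusted p = 0.047). Each was called under 6 of 9 alternatives, with adjusted p up to 0.463 in blood and 0.997 in lymphatic endothelial-like cells, and log2 fold changes of 2.49 to 2.73 and 2.13 to 2.55. The difference in the Cdo1 effect between blood endothelial-like cells and the lymphocytes beside them was 2.25 ± 0.42 (edgeR, adjusted p = 0.77) and was called under 1 of 9 alternatives; that between endothelial and fibroblast-like cells, which come from different libraries, was not tested. In blood endothelial-like cells no gene was called without the vehicle libraries, without the day 3 libraries or with free RNA subtracted. B cell-like cells of the CD45 fraction had 1.23 to 1.41 CPM of Cdo1 under the Cre-negative and 2.18 to 2.25 CPM under the Cre-positive label, with no counting interval above 0, and those of the CD31 fraction 0.646 to 3.08 CPM. In T cell-like cells of the CD31 fraction Cdo1 was higher under the Cre-positive label in 3 of 3 pairs, at log2 ratios of 0.35 to 0.79. It was so too in myeloid-like cells, at 0.45 to 1.55, with no interval above 0 in either class. In T cell-like cells of the CD45 fraction it was higher in 2 of 3 pairs. Free RNA also held more Cdo1 under the Cre-positive label. In the CD31 libraries it had 16.3 against 1.64 CPM at vehicle, 10.7 against 3.71 CPM at day 3 and 18.05 against 4.58 CPM at day 7, with the counting interval above 0 in 3 of 3 pairs. In the CD45 libraries it had 12.98 against 3.14, 5.15 against 3.03 and 18.3 against 6.02 CPM, with the interval above 0 in 2 of 3. Ap3s1, the neighbour on the other side, stood at 0.04 ± 0.07 in blood endothelial-like cells.

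**Figure D4:**
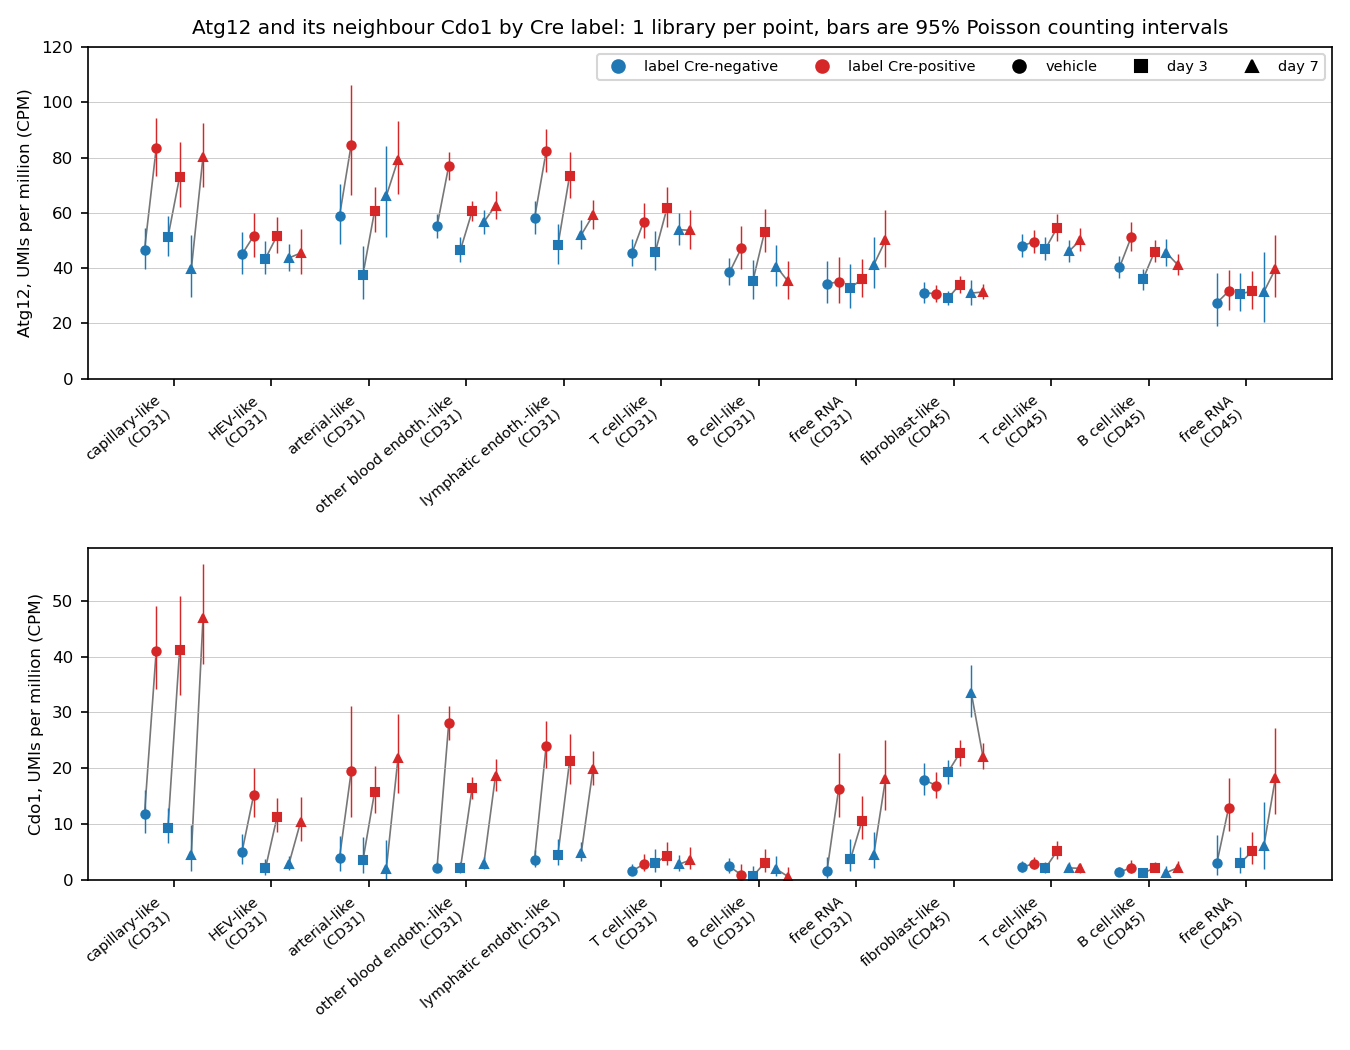
Atg12 (upper panel) and Cdo1 (lower panel) in CPM (vertical axes, from 0) by class, fraction and treatment; blue is the Cre-negative and red the Cre-positive label, a line joins the 2 libraries of a treatment, and bars are 95% Poisson intervals that cover counting error only. Atg12 is higher under the Cre-positive label in all 3 capillary-like pairs. It is also higher in 2 of 3 pairs of T and of B cell-like cells of the CD31 fraction. In the CD45 fraction it is higher in 3 of 3 T cell-like and 2 of 3 B cell-like pairs. In free RNA it is higher in 3 of 3 pairs of each fraction. In fibroblast-like cells it overlaps between labels and is higher in 2 of 3 pairs. Cdo1 is higher under the Cre-positive label in all 3 pairs of each endothelial class and of free RNA in both fractions. It is also higher in 3 of 3 pairs of T cell-like cells of CD31 and of B cell-like cells of CD45. In B cell-like cells of CD31 and in fibroblast-like cells it is higher in 1 of 3, and in T cell-like cells of CD45 in 2 of 3.

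None of the other 7 members was called by Cre label in the 7 classes fitted, and none of the 33 other pathway genes. In blood endothelial-like cells 0.00685% of 14606 genes were called by edgeR, and 0 of 8 members. The count was also 0 in HEV-like cells (0.0445% of genes called), lymphatic endothelial-like cells (0.00775%), T cell-like cells (0.0412%), B cell-like cells (0.00857%), fibroblast-like cells (0%) and the lymphocytes of the CD31 libraries (0%). DESeq2 likewise called 0 of 8 in each, while over all genes it called 21 in blood endothelial-like, 8 in HEV-like, 1 in lymphatic endothelial-like, 97 in T cell-like, 36 in B cell-like and 26 in fibroblast-like cells and 1 in the lymphocytes. Before adjustment a p under 0.05 was given to 1 member in blood endothelial-like and 1 in lymphatic endothelial-like cells, Atg12 in both, to 3 in T cell-like and 3 in B cell-like cells of the CD45 fraction, and to 0 in the other classes. Over all genes such a p was given to 399 of 14606 in blood endothelial-like cells and 332 of 12910 in lymphatic endothelial-like cells, but to 1937 of 12128 in T cell-like and 1649 of 11666 in B cell-like cells.

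In the T and B cell-like cells of the CD45 fraction, Atg7 and Atg10 were among these 3 members in both classes. Atg7 had 18.4, 15.9 and 18.2 CPM in B cell-like cells under the Cre-negative label at vehicle, day 3 and day 7, and 26.2, 27.8 and 24.8 CPM under the Cre-positive label. The groups do not overlap, and the fitted log2 fold change was 0.51 ± 0.12 (edgeR, adjusted p = 0.29, and 0.025 to 0.65 over the alternatives). In T cell-like cells Atg7 had 24.9, 23.7 and 19.98 CPM against 32.4, 32.0 and 29.8 CPM, with 0.38 ± 0.09 (adjusted p = 0.21). Atg10 in B cell-like cells had 54.6, 49.97 and 46.2 CPM against 71.4, 62.4 and 63.4 CPM, with 0.31 ± 0.09 (adjusted p = 0.30). The third member was Atg16l1 in T cell-like cells, at 0.28 ± 0.10, and Atg16l2 in B cell-like cells, at 0.21 ± 0.09. Library quality also moved with the label in the CD45 fraction. The mitochondrial share of UMIs was 1.60% to 1.97% in B cell-like cells under the Cre-negative and 2.45% to 2.50% under the Cre-positive label, and the median UMI count per cell 2505 to 3132 against 3427 to 4280. In T cell-like cells the mitochondrial share was 1.47% to 1.70% against 2.14% to 2.32%. The part of these in the Atg7 and Atg10 values was not tested. In B cell-like cells of the CD31 fraction, where the mitochondrial share was 1.79% to 2.03% and 1.71% to 2.24%, the label difference did not repeat in all 3 pairs. Atg7 had 15.7, 24.4 and 17.6 CPM there under the Cre-negative and 28.8, 17.1 and 19.4 CPM under the Cre-positive label, and Atg10 was higher under the Cre-positive label at vehicle, with 74.4 against 47.4 CPM, and lower at day 3 and day 7.

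**Figure D5:**
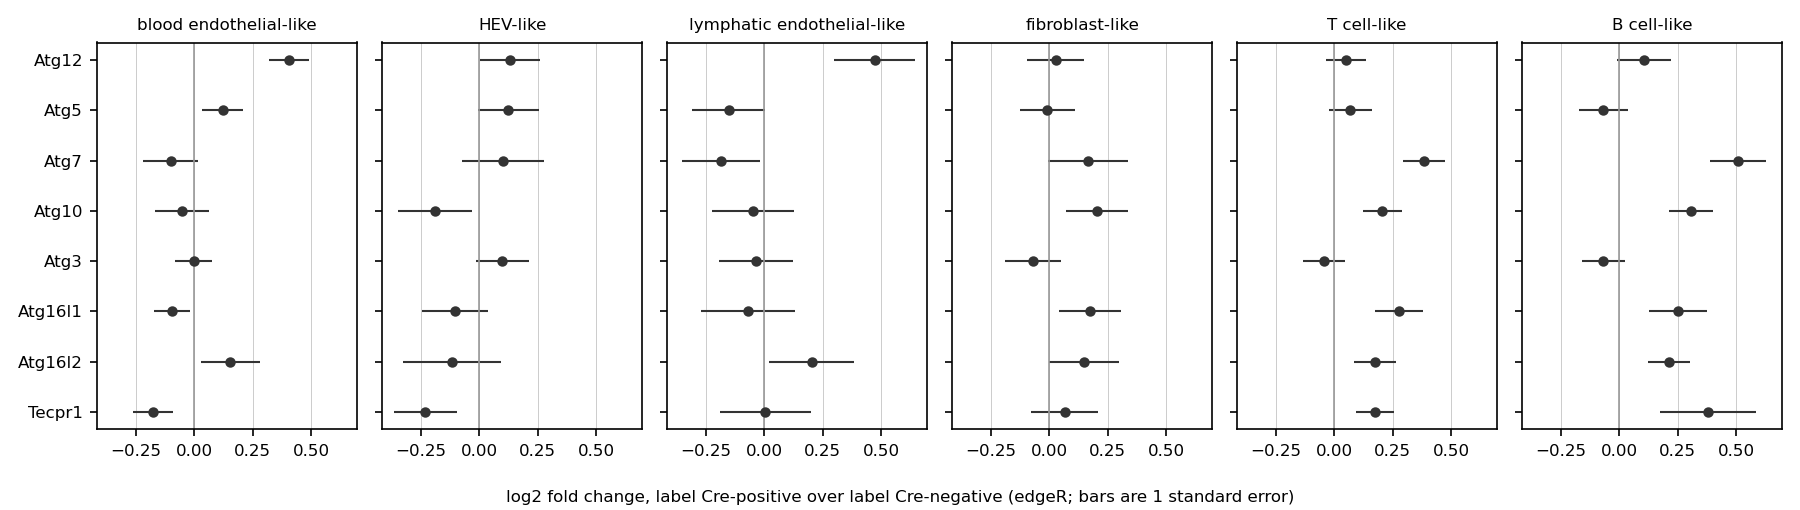
Log2 fold change of each member for the Cre-positive over the Cre-negative label (horizontal axis, edgeR, bars 1 standard error), fitted over the 3 treatments in 6 classes. Atg12 lies above 0 in blood and lymphatic endothelial-like cells and Atg7 in T and B cell-like cells, and none of the points has an adjusted p under 0.05.

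No member was called for oxazolone, with 2 libraries of a fraction per time point. At day 3 against vehicle 0% of 15005 genes were called in blood endothelial-like cells by edgeR, with 3613 genes at a p under 0.05 before adjustment, and 0 of 8 members. Tecpr1 had 67.9 and 58.04 CPM in the vehicle libraries labelled Cre-negative and Cre-positive, 48.7 and 38.0 CPM at day 3 and 56.2 and 57.9 CPM at day 7. The day 3 values lie below all others, with a log2 fold change of -0.48 ± 0.11 (edgeR, adjusted p = 0.086, and 0.033 to 0.11 over the alternatives). Within capillary-like cells Tecpr1 had 136 and 117 CPM at vehicle and 114 and 111 CPM at day 3, and the capillary-like share of blood endothelial-like cells was 26.9% and 25.2% at vehicle and 42.3% and 20.4% at day 3. Atg10 stood at -0.44 ± 0.14 at day 3 in the same cells (adjusted p = 0.15).

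In B cell-like cells of the CD45 fraction Tecpr1 ranged widely between libraries. It had 41.3 and 66.3 CPM at vehicle, 22.6 and 45.0 CPM at day 3 and 47.0 and 38.4 CPM at day 7 under the Cre-negative and Cre-positive labels. The Cre-positive label was higher at vehicle and day 3 and lower at day 7. The CD31 fraction, made from other cells of the same combinations, showed the same direction between labels at each treatment for B cell-like cells. These had 39.1 and 62.8 CPM at vehicle, 24.4 and 33.3 CPM at day 3 and 52.6 and 34.9 CPM at day 7. Day 3 against vehicle gave -0.68 ± 0.25 in the CD45 fraction (edgeR, adjusted p = 0.48, and 0.00078 to 0.77 over the alternatives, the lowest with no expression filter). By edgeR no gene was called in the treatment comparisons of T or B cell-like cells (0% of 12493 and of 12043 genes), or at day 7 in blood endothelial-like cells, where 385 genes had a p under 0.05 before adjustment. DESeq2 also called 0 of 8 members in the 6 treatment comparisons, while over all genes it called 792 at day 3 and 2 at day 7 in blood endothelial-like cells, 10 and 3 in T cell-like and 39 and 0 in B cell-like cells.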

How the data were processed

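The authors deposited UMI counts per gene and barcode for 12 droplet 3-prime libraries (10x Genomics, V2 chemistry, per the labels' protocols). The gene lists of all CD31 libraries labelled Cre-positive, and of the Cre-negative CD31 library at day 7, also held an entry mRFP. This entry was left out, and whether the references of these libraries differed otherwise was not tested. The submitters' processing notes name Cell Ranger 7.0.1 and mm10, while the file headers give Cell Ranger 4; the annotation, the use of intronic reads and the strand handling are not given in the sources used here. From these counts, barcodes were kept from 1000 UMIs and 500 genes upwards where mitochondrial UMIs were 10% or less, and 4.78% to 9.31% of them, those with the highest doublet scores for the expected rate, were removed. Each fraction was clustered with scanpy 1.11.5 (2000 variable genes without the listed genes, 30 components, Leiden resolution 1). Classes were named from marker lists, a rebuilt naming that can differ from the study's. Counts were summed per class and library (at least 20 cells) and fitted with edgeR 4.0.16 (quasi-likelihood, TMM): class differences with library as a block, and the Cre label and treatment additively, which leaves 2 residual degrees of freedom. The procedure was tested on simulated counts. Free RNA is the counts of barcodes with 10 to 100 UMIs. Intervals (95%) cover counting error only. Blood endothelial-like against fibroblast-like cells was planned within CD31 libraries, which held 59 fibroblast-like cells, and was not run; fibroblast-like cells were taken from the CD45 fraction. The alternatives were DESeq2 1.42.0, total UMIs, no expression filter, cells with at least 2000 UMIs, doublets kept, free RNA subtracted, and leaving out each treatment. The members and lists were chosen with earlier results of these data known. All 8 members are reported in every comparison; of the other pathway genes at most the 3 called genes of largest change per comparison are named, and likeness is Pearson's r of log2(CPM + 1) over class medians.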

Additional observations from a re-analysis of the deposited data

Results flagged for a closer look

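The Cre label was compared between 6 classes: blood endothelial-like, HEV-like and lymphatic endothelial-like cells of the CD31 fraction, and fibroblast-like, T cell-like and B cell-like cells of the CD45 fraction. Among these, the 3 treatment pairs of 5 members moved one way in one class and the other way in another. How many of all genes did so was not counted, so the 5 are not read as a result about the members. None of these differences was tested, and of those among the 6 classes only the HEV-like against lymphatic endothelial-like ones compare classes of the same libraries. No counting interval lay off 0 for Atg5 or Atg3 in HEV-like or lymphatic endothelial-like cells, or for Atg16l2 or Tecpr1 in HEV-like cells. For Atg7 in lymphatic endothelial-like cells 1 of 3 lay below 0. In the CD45 classes named below, the interval lay above 0 in 1 to 3 of the 3 pairs. The values are differences between the mean log2 ratios of the Cre-positive over the Cre-negative label. Atg7 was higher in the 3 pairs of T cell-like cells (mean 0.46) and of B cell-like cells (mean 0.59) and lower in the 3 of lymphatic endothelial-like cells (mean -0.24), which gives differences of 0.70 and 0.82. In the CD31 libraries that hold the lymphatic cells, Atg7 was higher in 1 of 3 T cell-like and 2 of 3 B cell-like pairs, so neither class was higher in all 3 pairs there. Atg5 was higher in HEV-like cells (mean 0.17) and in T cell-like cells (mean 0.15) and lower in lymphatic endothelial-like cells (mean -0.20), with differences of 0.365 and 0.345. Among the CD31 libraries, Atg5 was higher in 1 of 3 T cell-like and 3 of 3 B cell-like pairs. Atg3 was higher in HEV-like and lower in lymphatic endothelial-like cells, with a difference of 0.218.

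Atg16l2 was lower in the 3 HEV-like pairs (mean -0.08) and higher in those of fibroblast-like, T cell-like and B cell-like cells, by differences of 0.278, 0.334 and 0.372. In the CD31 libraries it was higher in 1 of 3 T cell-like and 2 of 3 B cell-like pairs. Tecpr1 was lower in HEV-like cells (mean -0.19) and higher in T cell-like cells of the CD45 fraction (mean 0.25), a difference of 0.444. Among the CD31 libraries, T cell-like Tecpr1 was higher in 2 of 3 pairs. Outside the 6 classes, Atg16l1 was higher in 3 of 3 capillary-like pairs (0.02 to 0.22) and in 0 of 3 arterial-like pairs (-0.46 to -0.05) and 0 of 3 other blood endothelial-like pairs (-0.47 to -0.05) of the same libraries. The counting interval lay off 0 in 1 other blood endothelial-like pair alone.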

How the results depend on the processing

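The labels carry no replicate numbers to block on; the fits already hold treatment, for the Cre label, or library, for class differences, as a term. Counts of members called kept within 1.5 times of the main count in 156 of the alternatives run over all comparisons, moved further in 9 and rose from 0 in 3. The 156 include counts that stayed at 0, as in the label and treatment comparisons, which all called 0 of 8 members. The 9 all fall in class comparisons. Blood against lymphatic endothelial-like cells moved from 1 member called to 2 with total UMIs, with no expression filter and with doublets kept. HEV-like against other blood endothelial-like cells moved from 4 to 8 with total UMIs and to 2 with no expression filter, without the vehicle libraries and without the day 3 libraries. Capillary-like against other blood endothelial-like cells moved from 4 to 1 without the vehicle libraries and to 2 without the day 7 libraries. With no expression filter 1 member was called where none had been, Atg7 for the Cre label and Tecpr1 for day 3, both in B cell-like cells. Without the day 7 libraries Tecpr1 was called for day 3 in blood endothelial-like cells, at -0.49. Among called members, the reversed directions were those of Atg10 (-0.18) and Atg3 (-0.16) in HEV-like cells with total UMIs; Atg12 for the Cre label in fibroblast-like cells, not called, reversed without day 3 (-0.0046). Among members not called, total UMIs also reversed and called Atg5 in HEV-like cells (0.05 to -0.28) and Atg7 and Atg10 in fibroblast-like cells (-0.03 to 0.30 and -0.04 to 0.29). The cause was not tested, except that total UMIs shift all genes, by a median of -0.35 in HEV-like cells. Over the alternatives of the members called between classes, of those under an unadjusted p of 0.05 for label or treatment, and of Atg12 for the label, 360 values kept direction and side of the threshold, 22 lost their call, 3 gained one and 3 reversed. Of the median levels, 383 moved by less than the spread between libraries and 1 by more, Tecpr1 in myeloid-like cells, from 11.6 to 14.4 CPM with doublets kept. Leaving out 1 treatment leaves 2 pairs, and low-count classes (plasma, neutrophil-like) rest on few UMIs.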
